A study of Mus musculus with 36 samples.

Results

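The ligands, receptors and matrix carriers of TGF-beta and activin signalling were followed through the first postnatal week in 2 mouse models of polycystic kidney disease. The set was a fixed list of 10 genes among the 20458 gene symbols of the count table: Tgfb1, Tgfb2, Tgfb3, Tgfbr1, Tgfbr2, Inhba, Inhbb, Ltbp1, Ltbp2 and Tgfbi. They held 12 of its 29996 transcript rows, and for each gene the row with the highest mean count over all 36 libraries was used. Reads were counted on 9 of the 10 genes. Both Tgfbr2 rows (NM_009371 and NM_029575) were listed at 0 in every library, so that the type II receptor had no value.

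Kidney RNA of C57BL/6 mice was sequenced 1 (P1), 3 (P3) and 7 (P7) days after birth, with 3 libraries in each of 12 groups. The KO mice were Pkd1f/f:HoxB7-Cre or Pkd2f/f:HoxB7-Cre, in which the HoxB7 promoter drives Cre recombinase in the collecting duct and removes the floxed exons there. The WT mice were littermates homozygous for the same floxed allele, Pkd1f/f or Pkd2f/f, without Cre. The RNA came from kidney tissue with all its cell types, in which fewer cells of a type and less RNA per cell cannot be told apart.

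TGF-beta is secreted in a latent complex with its propeptide, which latent TGF-beta binding proteins and fibrillins anchor in the matrix until integrins, thrombospondin or proteases release it. The free ligand brings together a type II and a type I receptor kinase, which phosphorylate Smad proteins, and activins, the dimers of inhibin beta subunits, signal through related receptors and the same Smads. In the kidney the pathway is known for driving matrix deposition and myofibroblast formation in scarring.

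The 250 bases before the start of 4 members, the ligands with the most promoter motifs and both latent binding proteins, are shown. They are RefSeq windows of GRCm38.p6, written 5′ to 3′ on the strand of the gene, and capitals mark matches to the motifs searched. Tgfb1 lies at chr7:25686752-25687001 on the plus strand, Tgfb2 at chr1:186705990-186706239 on the minus strand, Ltbp1 at chr17:75005279-75005528 on the plus strand and Ltbp2 at chr12:84876492-84876741 on the minus strand.
Tgfb1: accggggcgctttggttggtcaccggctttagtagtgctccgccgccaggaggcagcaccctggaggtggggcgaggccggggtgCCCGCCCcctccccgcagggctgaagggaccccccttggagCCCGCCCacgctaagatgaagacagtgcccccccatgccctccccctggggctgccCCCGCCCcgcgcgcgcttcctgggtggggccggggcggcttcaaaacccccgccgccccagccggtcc
Tgfb2: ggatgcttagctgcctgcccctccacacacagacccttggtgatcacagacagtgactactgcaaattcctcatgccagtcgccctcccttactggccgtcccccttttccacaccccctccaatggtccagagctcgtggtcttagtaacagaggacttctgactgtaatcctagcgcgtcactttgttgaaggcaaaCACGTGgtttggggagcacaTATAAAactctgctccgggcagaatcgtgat
Ltbp1: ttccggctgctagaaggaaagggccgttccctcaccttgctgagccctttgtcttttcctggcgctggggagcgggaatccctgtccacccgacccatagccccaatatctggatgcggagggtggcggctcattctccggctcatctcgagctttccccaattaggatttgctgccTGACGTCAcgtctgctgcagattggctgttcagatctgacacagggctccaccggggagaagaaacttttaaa
Ltbp2: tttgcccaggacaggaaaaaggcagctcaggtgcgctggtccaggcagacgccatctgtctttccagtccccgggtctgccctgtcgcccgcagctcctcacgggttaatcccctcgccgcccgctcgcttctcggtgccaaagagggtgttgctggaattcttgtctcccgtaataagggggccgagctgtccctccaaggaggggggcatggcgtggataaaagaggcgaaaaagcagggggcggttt

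Windows of 250 bases before to 50 bases after the start were found for 9 members, 11 windows in all, and Tgfb3 had none. Searched on both strands, the Tgfb1 window held the GC box GGGCGGG 3 times, at -165, -124 and -68 from its start, and 25.6% of all 32851 windows hold this motif at least once. The Tgfb2 window held the E-box CACGTG at -51, found in 7.2% of all windows, and the TATA box TATAAA at -31, found in 13.6%. The Ltbp1 window held the cyclic AMP response element TGACGTCA at -73, found in 1.8% of all windows. The Ltbp2 window held none of the motifs. The AP-1 site TGANTCA, the Smad-type motif GTCTNGAC and the TEAD site GGAATG were in none of the 11 windows, against 7.8%, 1.8% and 14.7% of all windows. These matches describe the letters of the windows only, and a link to the levels of the genes was not tested. The GENCODE vM21 transcript paired with the counted row began within 39 bases of the window's start site for Tgfb1, Tgfb2, Tgfbr1, Inhbb, Ltbp1, Ltbp2 and Tgfbi. Coordinates beside gene names below are RefSeq gene spans, which can reach beyond that transcript, and the Tgfb2 start site, at 186705989, lies inside its gene span.

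Library totals ranged from 7179152 to 15850818 counts, with a median of 13143336. Levels are given as CPM, read counts scaled to library size with TMM factors within a model. Each KO group was set against its WT group by the quasi-likelihood test of edgeR, and a transcript was called at an adjusted p (Benjamini-Hochberg, over all transcripts tested) under 0.05. The deleted gene checked the labels in 1 of 6 comparisons, since counts on the whole transcript include undeleted exons and all other cells: Pkd2 fell in Pkd2 KO kidneys at P7 (log2 fold change -0.29, adjusted p = 0.0122), and Pkd1 did not pass at any day in Pkd1 KO kidneys (-0.20, -0.07 and 0.10). Y-linked transcripts were counted in 18 of 36 libraries. At P7 in the Pkd1 model they were present in 3 of 3 KO and 0 of 3 WT libraries, so that sex and genotype cannot be told apart in that comparison, while in the Pkd2 model they were present in 3 KO and 2 WT libraries. A length index was taken for each library as the median log2 deviation of the longest 10% of transcripts minus that of the shortest 10%. The 3 KO libraries and WT replicate 3 of the Pkd1 model at P7 stood apart, with -0.66, -0.53, -0.55 and -0.54, whereas WT replicates 1 and 2 had -0.06 and 0.33 and the other 30 libraries lay between -0.26 and 0.45. KO-against-WT results from those kidneys are therefore given with and without WT replicate 3. Leaving it out removes the only WT library with the low index of the KO libraries. In every fit without it, length index and genotype cannot be told apart in the Pkd1 kidneys at P7.

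In WT kidneys the members covered a wide range of levels. Per kilobase of transcript, WT kidneys of the Pkd2 model at P7 had 85.9 ± 9.98 CPM (SD, n = 3) of Tgfbi, 35.7 ± 0.374 of Tgfbr1 and 22.2 ± 1.42 of Tgfb1. Tgfb2 with 7.85 ± 1.02 and Tgfb3 with 7.56 ± 0.351 CPM per kilobase did not differ beyond their spread. Inhbb (1.69 ± 0.444) and Ltbp1 (1.5 ± 0.104) were likewise within their spread on this scale, as were Inhba (0.547 ± 0.433) and Ltbp2 (0.399 ± 0.119). Ltbp1 has 2 rows in the table, and reads that fit both equally are left out of the counts. Its level per kilobase of the whole transcript, and its place beside Inhbb, are therefore uncertain. At P1 the same kidneys had the same first 3 genes in the same order per kilobase, and Inhba was the lowest of the genes with reads.

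At P1 and P3 no member passed the test in either model. Among all transcripts tested, 0% passed in the Pkd1 model at P1, 0.00798% at P3, and 0% at either day for Pkd2. At an unadjusted p under 0.05, 0 members were counted for Pkd1, against 1.29% of all transcripts at P1 and 14.1% at P3. Tgfb2 and Ltbp2 were counted at both days for Pkd2, against 5.60% of all transcripts at P1 and 4.46% at P3. DESeq2 and edgeR's exact test each called 1 member, Ltbp2 in the Pkd2 model at P1, where they called 0.261% and 0.237% of all transcripts, and none in the other 3 comparisons. Log2 fold changes of the members ran from -0.20 (Ltbp2 and Tgfb2) to 0.03 (Inhbb) at P1 and from -0.18 (Ltbp1) to 0.51 (Ltbp2) at P3 in Pkd1 kidneys. In Pkd2 kidneys they ran from -0.17 (Tgfb1) to 2.33 (Ltbp2) at P1 and from -2.04 (Ltbp2) to 0.37 (Tgfb2) at P3.

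At P7, 7 of the 9 members tested passed in the Pkd1 model, 6 higher and 1 lower in KO kidneys. Of all 12524 transcripts tested there, 13.7% passed, 6.20% higher and 7.54% lower. In the Pkd2 model 8 of 9 members passed, all of them higher, against 13.9% of 12628 transcripts, of which 7.82% were higher and 6.06% lower. The median log2 fold change of the 9 members was 0.59 for Pkd1 and 1.03 for Pkd2, while over all transcripts tested it was -0.0057 and 0.0018. The 2 models have separate control mice. Sex and genotype coincide in the Pkd1 kidneys at P7. A fit of all 18 libraries took Y-linked counts, entered as present or absent, as a covariate. In it 1 of the 7 members stayed under the threshold, Tgfb3 (log2 fold change 1.33, adjusted p = 0.0317). In the Pkd1 model only the P1 WT group mixes libraries with and without Y-linked counts, so that the covariate rests on those 3 libraries. This fit called 6 of 12527 transcripts for Pkd1 in all (0.0479%). For Pkd2 it called 6 members and 12.2% of all transcripts. Without Pkd1 WT replicate 3, the 7 members and 25.7% of all transcripts were called for Pkd1.

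**Figure D1:**
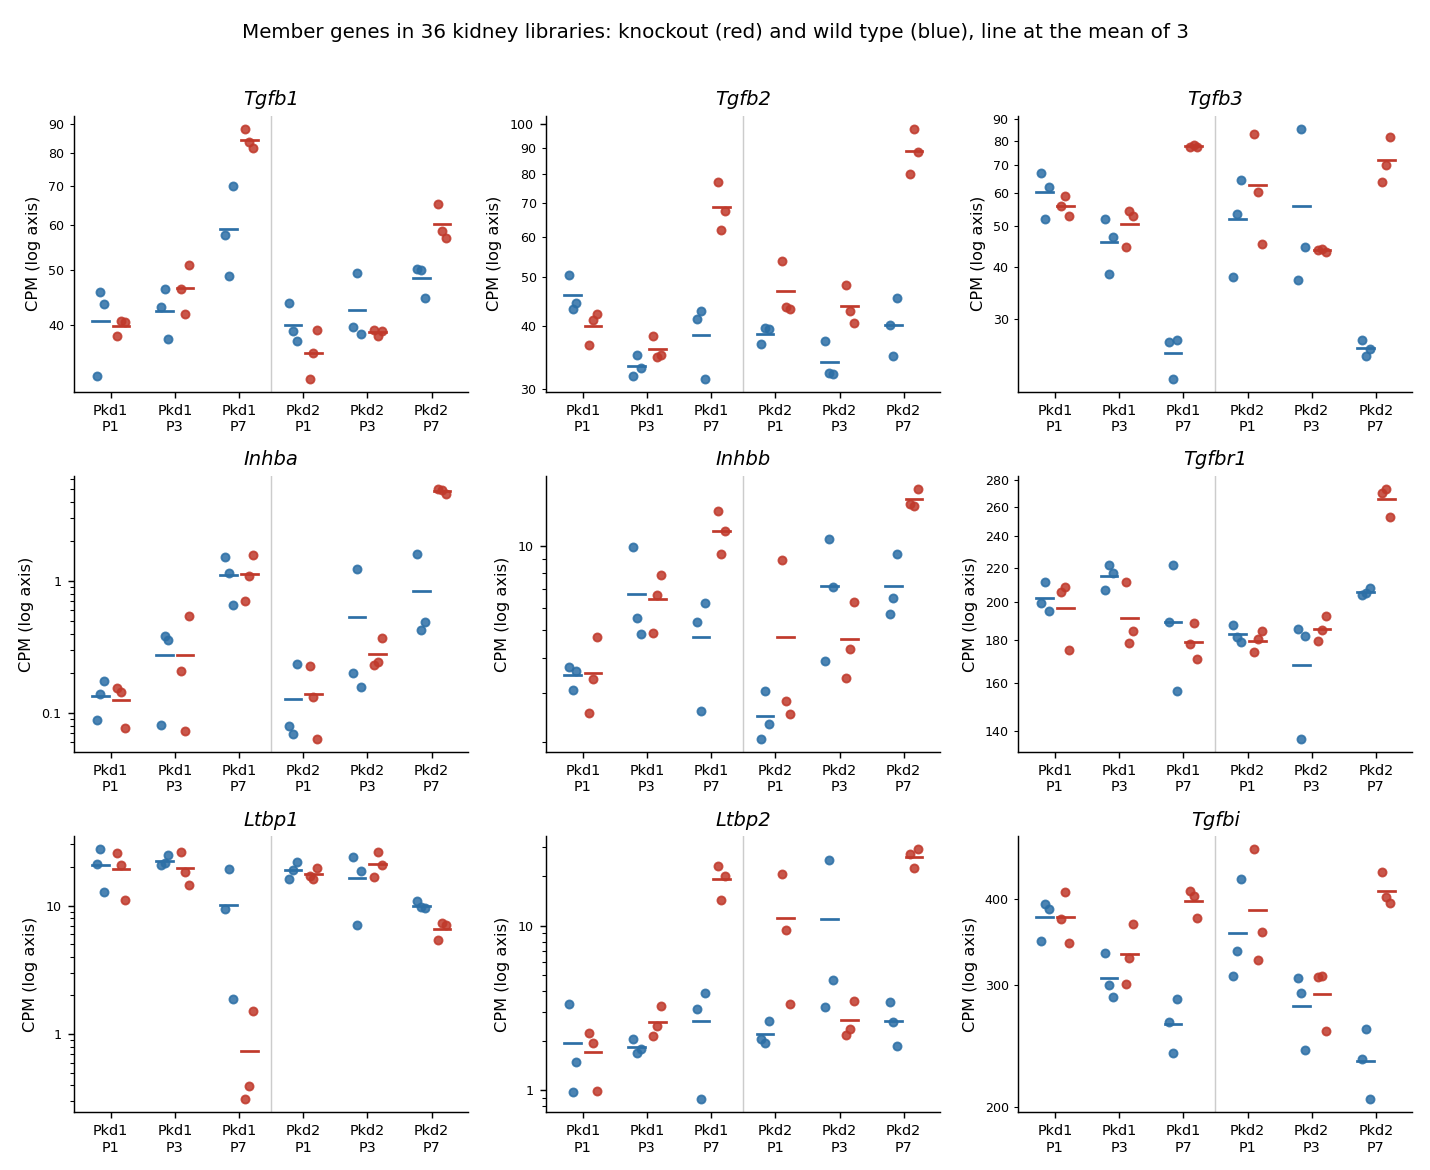
Level of each of the 9 member genes with reads in all 36 kidney libraries, in CPM on a log axis, by model and day. Each point is a library, red for KO and blue for WT, and the line is the mean of 3. At P7 the KO and WT libraries do not overlap for 7 of the 9 genes in the Pkd1 model and for all 9 in the Pkd2 model. The same holds for 38.7% and 35.1% of all transcripts.

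Tgfb1 (NM_011577, GRCm38.p6 chromosome 7, 25687002 to 25705077), the most widely expressed of the TGF-beta ligands, was slightly higher in KO kidneys at P7. Pkd1 KO kidneys had 88.4, 83.6 and 81.6 CPM and WT kidneys 57.5, 48.7 and 70.2, a log2 fold change of 0.52 (SE 0.14, adjusted p = 0.0477 in edgeR's test). Pkd2 KO libraries had 65.1, 58.4 and 56.8 CPM and WT libraries 50.2, 49.9 and 44.7, a log2 fold change of 0.32 (SE 0.09, adjusted p = 0.0471). The KO and WT libraries did not overlap in either model, but the gap between the nearest libraries was 1.16-fold and 1.13-fold. The adjusted p values were the largest among the members called in each model. For Pkd2 the call was lost when any 1 of the 6 libraries was left out, with adjusted p values between 0.0657 and 0.107. For Pkd1 it held in 1 of 6 such fits, the one without WT replicate 3 (log2 fold change 0.68, adjusted p = 0.00884). At P1 the levels ran from 32.2 to 45.7 CPM over both models and genotypes.

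Tgfb2 (NM_009367, chromosome 1, 186622787 to 186709697), whose E-box and TATA box are shown above, rose in both models. Pkd1 KO kidneys at P7 had 77.1, 61.9 and 67.4 CPM and WT kidneys 41.2, 42.7 and 31.4. They differed by 0.84 on the log2 scale (SE 0.15, adjusted p = 0.0162), and by 0.72 without WT replicate 3 (adjusted p = 0.00958). Pkd2 KO kidneys had 79.7, 98.1 and 88.4 CPM and WT kidneys 40.2, 34.9 and 45.3, a log2 fold change of 1.14 (SE 0.12, adjusted p = 0.00133). Every KO library lay above every WT library in both models, and the groups did not overlap at P7 for 38.7% of all transcripts in Pkd1 and 35.1% in Pkd2 kidneys. The Pkd1 call was lost without KO replicate 1 (adjusted p = 0.0548) or without WT replicate 1 (0.0618). Pkd2 KO libraries had 53.7, 43.5 and 43.3 CPM at P1 and WT libraries 36.8, 39.7 and 39.4. At P3 they had 48.3, 42.8 and 40.6 against 37.3, 32.3 and 32.2 CPM. KO and WT libraries of Tgfb2 did not overlap at either day, nor did those of 11.3% of all transcripts at P1 and 9.91% at P3, and the log2 fold changes of 0.28 and 0.37 did not pass (adjusted p = 0.864 and 0.931 in edgeR's test).

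Tgfb3 (NM_009368, chromosome 12, 86056743 to 86079041) showed the largest rise among the 3 TGF-beta ligands. Pkd1 KO kidneys at P7 had 77.5, 78.2 and 77.5 CPM and WT kidneys 26.4, 21.6 and 26.8. The log2 fold change was 1.64 (SE 0.13, adjusted p = 0.00106), a 3.12-fold difference. Pkd2 KO kidneys had 63.7, 70.1 and 81.9 CPM and WT kidneys 26.8, 24.4 and 25.4, a log2 fold change of 1.49 (SE 0.11, adjusted p = 0.000343). The lowest KO library stood 2.89-fold above the highest WT library for Pkd1 and 2.37-fold for Pkd2. The call held in all 6 fits that left out 1 library in each model, and without Pkd1 WT replicate 3 the log2 fold change was 1.71. This replicate, with the low length index of the KO libraries, had 26.8 CPM of Tgfb3. The part of the length index in the Tgfb3 levels was not tested.

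Tgfb3 fell in WT kidneys over the same week. Pkd1 WT libraries had 67.1, 52.0 and 62.0 CPM at P1, and Pkd2 WT libraries 37.8, 53.5 and 64.4. Between P1 and P7 the WT level fell by 1.28 on the log2 scale for Pkd1 (SE 0.13, adjusted p = 6.78e-06 in edgeR's test) and by 1.02 for Pkd2 (SE 0.27, adjusted p = 0.0113). The P7 KO libraries, at 63.7 to 81.9 CPM over both models, lay in or above the range of the P1 WT libraries.

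Inhba (NM_008380, chromosome 13, 16004256 to 16031609), the beta A subunit of activin A, had the fewest reads of the 9 genes with any. At P1 each of the 12 libraries held 1 to 3 reads. Pkd2 KO libraries at P7 had 5.02, 4.91 and 4.57 CPM and WT libraries 1.60, 0.424 and 0.486. The KO kidneys were higher by a log2 fold change of 2.52 (SE 0.46, adjusted p = 0.0122), and the sums of 186 and 33 reads gave a ratio of 5.67 with a 95% exact counting interval of 3.90 to 8.49, which covers counting error only. WT replicate 1 held 21 of the 33 WT reads. The call held in all 6 fits with 1 library left out, and without WT replicate 1 the log2 fold change was 3.39 (adjusted p = 0.00581). Taken off the log2 scale, this is a larger ratio than that interval reaches. Pkd1 KO libraries had 0.702, 1.10 and 1.58 CPM and WT libraries 1.52, 1.15 and 0.655. These overlapped throughout, with a log2 fold change of 0.02 (SE 0.50, adjusted p = 0.981), or -0.23 without WT replicate 3 (adjusted p = 0.756). The sums of 45 and 48 reads gave a ratio of 0.989 with an interval of 0.643 to 1.52.

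Inhbb (NM_008381, chromosome 1, 119415463 to 119422248), the beta B subunit, rose in both models. Pkd1 KO kidneys at P7 had 13.3, 9.33 and 11.3 CPM and WT kidneys 5.34, 2.58 and 6.26, a log2 fold change of 1.26 (SE 0.34, adjusted p = 0.0459). Pkd2 KO kidneys had 14.1, 13.9 and 15.9 CPM and WT kidneys 5.71, 6.50 and 9.31, a log2 fold change of 1.03 (SE 0.20, adjusted p = 0.0147). The KO and WT libraries were apart in both, by 1.49-fold between the nearest libraries. The Pkd1 call held in 1 of 6 fits with a library left out, the one without WT replicate 3 (log2 fold change 1.52, adjusted p = 0.0213). The Pkd2 call was lost without KO replicate 3 (adjusted p = 0.0520) or WT replicate 1 (0.0601).

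**Figure D2:**
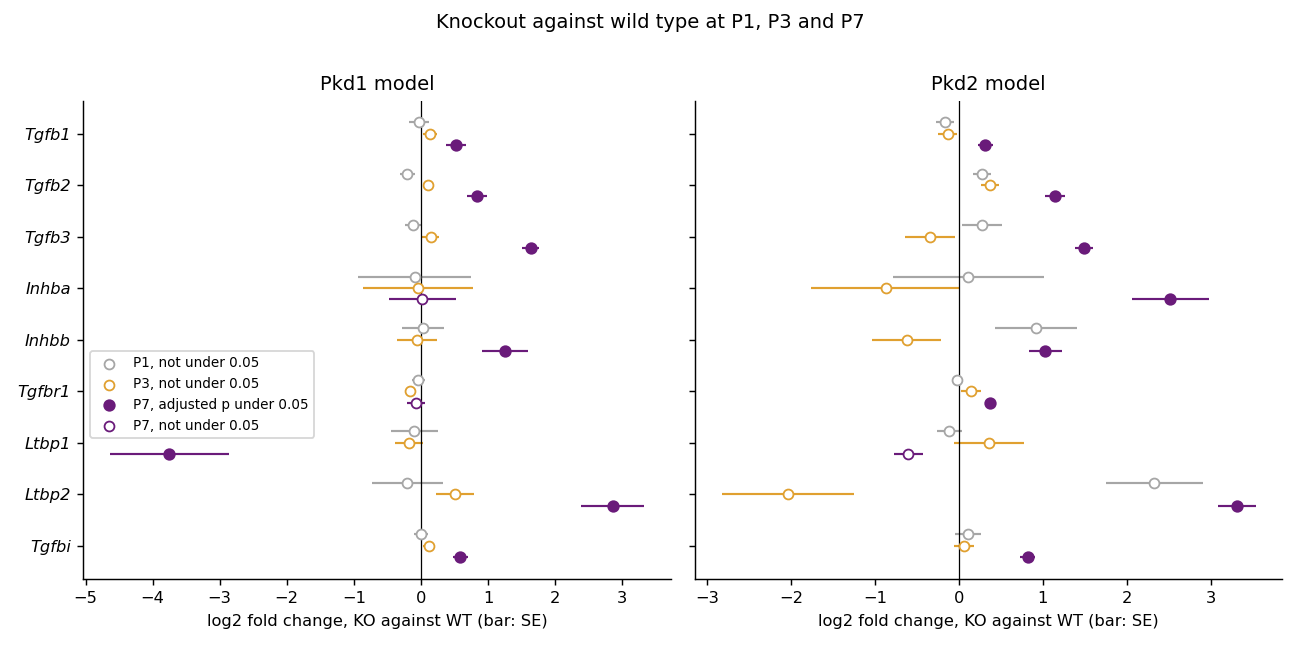
Log2 fold change of each member, KO against WT, at P1, P3 and P7 in both models, with its standard error as the bar. Filled points passed an adjusted p of 0.05: 7 members for Pkd1 and 8 for Pkd2, all at P7, with Ltbp2 the highest and Ltbp1 the lowest in each model at that day.

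Among the receptors, Tgfbr1 (NM_009370, chromosome 4, 47353222 to 47414926), the type I receptor kinase, rose slightly in the Pkd2 model. Pkd2 KO kidneys at P7 had 271, 274 and 253 CPM and WT kidneys 204, 205 and 208. The log2 fold change was 0.37 (SE 0.05, adjusted p = 0.00490), and the call held in all 6 fits with a library left out. Pkd1 KO kidneys had 178, 189 and 171 CPM and WT kidneys 189, 222 and 156, which overlapped (log2 fold change -0.08, SE 0.14, adjusted p = 0.732, and -0.18 with adjusted p = 0.267 without WT replicate 3). The difference between the models did not pass with all 12 libraries (adjusted p = 0.191) and passed without Pkd1 WT replicate 3 (adjusted p = 0.0144).

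Ltbp2 (NM_013589, chromosome 12, 84783212 to 84876558), a matrix protein of the latent binding family that does not itself bind latent TGF-beta, had the largest rise of all members. Pkd1 KO kidneys at P7 had 23.1, 14.3 and 20.2 CPM and WT kidneys 3.12, 0.882 and 3.93. The log2 fold change was 2.86 (SE 0.47, adjusted p = 0.0116). Pkd2 KO kidneys had 27.2, 22.6 and 29.4 CPM and WT kidneys 3.43, 2.61 and 1.86, a log2 fold change of 3.32 (SE 0.22, adjusted p = 0.000315). The lowest KO library stood 3.63-fold above the highest WT library for Pkd1 and 6.60-fold for Pkd2. Without Pkd1 WT replicate 3 the log2 fold change was 3.27 (adjusted p = 0.00601), and the call was lost without WT replicate 1 (adjusted p = 0.0506). The Pkd2 call held in all 6 such fits.

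Ltbp2 spread widely within groups at the earlier days. Pkd2 KO libraries at P1 had 20.7, 9.49 and 3.35 CPM and WT libraries 2.05, 1.94 and 2.64. All 3 KO libraries were above the WT libraries, and the log2 fold change of 2.33 (SE 0.58) did not pass (adjusted p = 0.854). KO replicate 1 also had the highest levels of its group for Inhbb (8.89 against 2.81 and 2.53 CPM), Tgfb3 (83.0 against 60.2 and 45.3) and Tgfbi (472 against 326 and 358). With 1 library left out, the log2 fold changes at P1 ran from 1.53 to 2.77 for Ltbp2 and from 0.10 to 1.23 for Inhbb. At P3 KO libraries had 2.16, 2.34 and 3.49 CPM, and WT libraries 3.23, 25.2 and 4.67. WT replicate 2 stood far above the others there, and without it the log2 fold change moved from -2.04 to -0.56. The same library had the highest Tgfb3 level at P3 (85.5 CPM against 37.3 and 44.6 in the other WT libraries), the highest Inhba and Inhbb levels (1.23 and 10.5 CPM), the lowest Tgfbr1 and Ltbp1 levels of its group (137 and 7.08 CPM) and a length index of -0.24. Without it the log2 fold change of Tgfb3 at P3 turned from -0.35 to 0.10.

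Ltbp1 (NM_019919, chromosome 17, 75005480 to 75392512), which binds latent TGF-beta and anchors it to fibrillin, was the only member with a negative log2 fold change at P7 in both models, and it passed the test in Pkd1 kidneys. Pkd1 KO libraries had 0.312, 0.392 and 1.51 CPM, from 4, 5 and 21 reads, and WT libraries 9.43, 19.1 and 1.89 CPM, from 136, 282 and 26 reads. This gave a log2 fold change of -3.75 (SE 0.88, adjusted p = 0.0316). The KO libraries and WT replicate 3, which shared a low length index, were all under 2 CPM. The lowest WT and highest KO libraries differed little (1.89 and 1.51 CPM). Without WT replicate 3 the log2 fold change was -4.22 (adjusted p = 0.00541), and the call was lost without KO replicate 1 or 2 or without WT replicate 1 or 2 (adjusted p between 0.0656 and 0.125). With a correction for transcript length and GC content in the fit the log2 fold change was -3.42 (adjusted p = 0.0319). The part of the length index in the low Ltbp1 count was not tested further. For Pkd2, where the P7 indices lay between -0.18 and 0.01, KO libraries had 5.41, 7.36 and 7.02 CPM and WT libraries 10.8, 9.68 and 9.55. They did not overlap, and the log2 fold change of -0.60 (SE 0.17) missed the threshold (adjusted p = 0.0559) in edgeR's test and passed it in DESeq2 (adjusted p = 0.0402). The second Ltbp1 row, NM_206958, had a mean of 1.83 counts. Reads that fit both rows equally are left out, so that these values may cover only a part of the Ltbp1 transcripts.

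**Figure D3:**
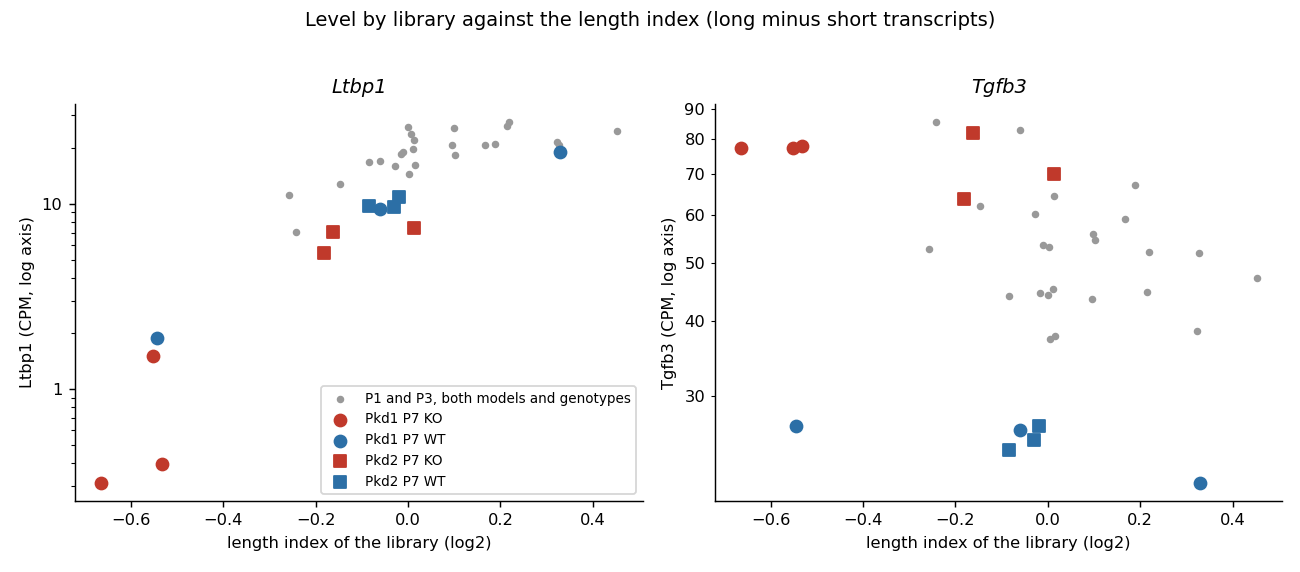
Level of Ltbp1 and Tgfb3 (CPM, log axis) in each of the 36 libraries against the length index of the library (log2 deviation of the longest minus the shortest transcripts). Large points are P7 kidneys, circles for the Pkd1 and squares for the Pkd2 model, red for KO and blue for WT; WT replicate 3 of the Pkd1 model lies at -0.54 beside the KO libraries for Ltbp1 (1.89 CPM) and with the WT libraries for Tgfb3 (26.8 CPM).

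Tgfbi (NM_009369, chromosome 13, 56609586 to 56639359), a secreted matrix protein first found as a gene induced by TGF-beta, was the most abundant member and rose in both models. Pkd1 KO kidneys at P7 had 410, 404 and 375 CPM and WT kidneys 266, 240 and 286. The difference was 0.59 on the log2 scale (SE 0.11, adjusted p = 0.0167), and 0.66 without WT replicate 3 (adjusted p = 0.00755). Pkd2 KO kidneys had 437, 402 and 394 CPM and WT kidneys 235, 259 and 205, a log2 fold change of 0.82 (SE 0.09, adjusted p = 0.00169). No KO library overlapped a WT library. The Pkd2 call held in all 6 fits with a library left out. The Pkd1 call held in 3 of them and was lost without KO replicate 1 or 2 or WT replicate 1 (adjusted p between 0.0627 and 0.0825).

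The change of the KO effect between P1 and P7 was tested as an interaction over the 18 libraries of a model. For Pkd1, 5 of 9 members passed, 4 with a higher and 1 with a lower KO effect at P7, against 7.75% of 12527 transcripts, 3.66% higher and 4.10% lower. Y-linked transcripts were present in 0 of 3 KO and 2 of 3 WT libraries of this model at P1, and sex cannot be told apart from the change. The KO effect rose for Tgfb2 (difference of log2 fold changes 1.04, SE 0.17, adjusted p = 0.00303 in edgeR's test), Tgfb3 (1.76, adjusted p = 5.72e-05), Ltbp2 (3.07, adjusted p = 0.0136) and Tgfbi (0.59, adjusted p = 0.0195). It dropped for Ltbp1 (-3.65, adjusted p = 0.0230), and that call held in 7 of 12 fits with a library left out while the other 4 held in all 12. Without P7 WT replicate 3, 6 members passed, against 17.4% of all transcripts: those 5, with Ltbp1 at -4.13 (adjusted p = 0.00230), and Tgfb1 at 0.70 (adjusted p = 0.0192). With Y-linked counts as a covariate 0 members and 0% of all transcripts passed. For Pkd2, 1 of 9 members passed, against 1.30% of 12633 transcripts and 1.12% with a higher effect: Tgfb2, with 0.87 (SE 0.16, adjusted p = 0.0127). In the Pkd2 model Y-linked transcripts were present in 0 of 3 KO and 1 of 3 WT libraries at P1. At P7 they were present in 3 of 3 KO and 2 of 3 WT libraries, so that sex changed with day in the KO groups. Differences of 1.22 for Tgfb3 (adjusted p = 0.133) and 0.71 for Tgfbi (adjusted p = 0.106) did not pass in that model. DESeq2 called 5 members there, against 3.89% of all transcripts.

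The KO effects of the 2 models at P7 were then compared with each other. No member passed in edgeR's interaction test, nor did any of the 12342 transcripts tested (0%), while 2130 transcripts had an unadjusted p under 0.05. Among the members, 3 had an unadjusted p under 0.05: Inhba (Pkd1 minus Pkd2, -2.48, SE 0.70, adjusted p = 0.153), Ltbp1 (-3.12, SE 0.94, adjusted p = 0.163) and Tgfbr1 (-0.43, SE 0.15, adjusted p = 0.191). DESeq2 called the first 2 (adjusted p = 0.0376 and 0.0205), against 3.29% of all transcripts. All 3 passed in edgeR's test without Pkd1 WT replicate 3, against 11.7% of all transcripts. For the 3 TGF-beta ligands the differences lay between -0.28 and 0.22.

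Between P1 and P7 members also changed in WT kidneys, 4 of 9 for Pkd1 and 5 of 9 for Pkd2, against 25.8% and 26.7% of all transcripts tested. Besides the fall of Tgfb3, Tgfbi fell by 0.51 and 0.62 on the log2 scale (adjusted p = 0.00129 and 0.00523 in edgeR's test). Inhba rose from 1 to 3 reads per library to 22, 17 and 9 reads for Pkd1 and 21, 6 and 6 for Pkd2. The ratio of summed reads was 8.46 with a 95% exact interval of 3.10 to 32.3 in the first and 6.53 with an interval of 2.53 to 21.4 in the second, and both passed (adjusted p = 0.00540 and 0.0221). Tgfb1 rose by 0.54 in Pkd1 WT kidneys (adjusted p = 0.00928), which was lost without WT replicate 3 of P7 (adjusted p = 0.0512) or without replicate 1 of P1, where the adjusted p was just over the threshold. Y-linked transcripts were present in 2 of 3 Pkd1 WT libraries at P1 and 0 of 3 at P7, so that sex changed with day there. With Y-linked counts as a covariate Tgfb3 (-1.06, adjusted p = 0.00167) and Tgfbi (-0.57, adjusted p = 0.0196) passed, against 8.08% of all transcripts, while Tgfb1 (0.36, adjusted p = 0.278) and Inhba (2.91, adjusted p = 0.157) did not. Inhbb rose by 1.53 (adjusted p = 0.0192) and Ltbp1 fell by 0.93 (adjusted p = 0.0330) in Pkd2 WT kidneys. Y-linked transcripts were present in 1 of 3 Pkd2 WT libraries at P1 and 2 of 3 at P7. With 1 library left out, the Pkd2 calls held in 6 of 6 fits for Tgfbi, 5 for Tgfb3, 3 each for Inhba and Inhbb and 1 for Ltbp1. These comparisons share the P7 WT libraries with those of KO against WT.

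Of 50 further genes of the pathway on the list, 38 were tested in the Pkd1 and 37 in the Pkd2 model, and none passed at P1 or P3. At P7, 6 were higher and 3 lower in Pkd1 KO kidneys with 29 not passing, and 12 were higher and 1 lower in Pkd2 KO kidneys with 24 not passing. Over all transcripts tested 6.20% were higher and 7.54% lower for Pkd1, and 7.82% and 6.06% for Pkd2. The median log2 fold change of these genes was -0.07 and 0.17, beside -0.0057 and 0.0018 over all transcripts. Without Pkd1 WT replicate 3, 9 were higher, 9 lower and 20 did not pass, with a median of -0.13. Response genes, 8 of the 38 and 8 of the 37 genes tested, held 4 of the 6 and 6 of the 12 rises. They also held 1 of the 3 falls for Pkd1 and 0 of the 1 fall for Pkd2. Tagln, an actin-binding protein of smooth muscle, rose by 1.97 on the log2 scale for Pkd1 and 1.90 for Pkd2, and Acta2, smooth muscle actin and a marker of myofibroblasts, by 1.41 and 1.75. Ccn2, connective tissue growth factor, rose by 1.75 in each. Thbs1, thrombospondin-1, which releases TGF-beta from its latent complex, rose by 0.98 (adjusted p = 0.0411 in edgeR's test) and 1.73 (adjusted p = 0.000377). Of the 5 Smads tested in the Pkd1 model none passed, and in the Pkd2 model Smad3 fell by 0.22 (adjusted p = 0.0250). The activin type I receptor Acvr1b fell by 0.81 in the Pkd1 model (adjusted p = 0.0230). Without WT replicate 3 the Pkd1 values were 1.98 for Tagln, 1.47 for Acta2, 1.93 for Ccn2, 0.76 for Thbs1 and -0.96 for Acvr1b, all of them called, and 1 of 5 Smads passed, Smad3 (-0.39, adjusted p = 0.0485). Of the 8 response genes, edgeR's test then called 4 higher and 2 lower for Pkd1. The lower ones were Fn1, given below, and the collagen gene Col3a1 (-0.71, adjusted p = 0.00958), while Col1a1 did not pass (0.28, adjusted p = 0.307).

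Fn1, fibronectin, and Ltbp4, another latent binding protein, were called in opposite directions. For Pkd1, Fn1 had a log2 fold change of -2.97 (adjusted p = 0.0434) and Ltbp4 one of -1.85 (adjusted p = 0.0366), and in the Pkd2 model 1.00 (adjusted p = 0.00509) and 0.84 (adjusted p = 0.0322). Without Pkd1 WT replicate 3 they were -3.41 (adjusted p = 0.00920) and -2.10 (adjusted p = 0.0134) for Pkd1. The difference between the models did not pass for either with all 12 libraries and passed for both without Pkd1 WT replicate 3 (adjusted p = 0.00731 for each). Fn1 has 7 rows and Ltbp4 2 rows in the table, of which 1 was used, and the part of the length index in their low Pkd1 counts was not tested.

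**Figure D4:**
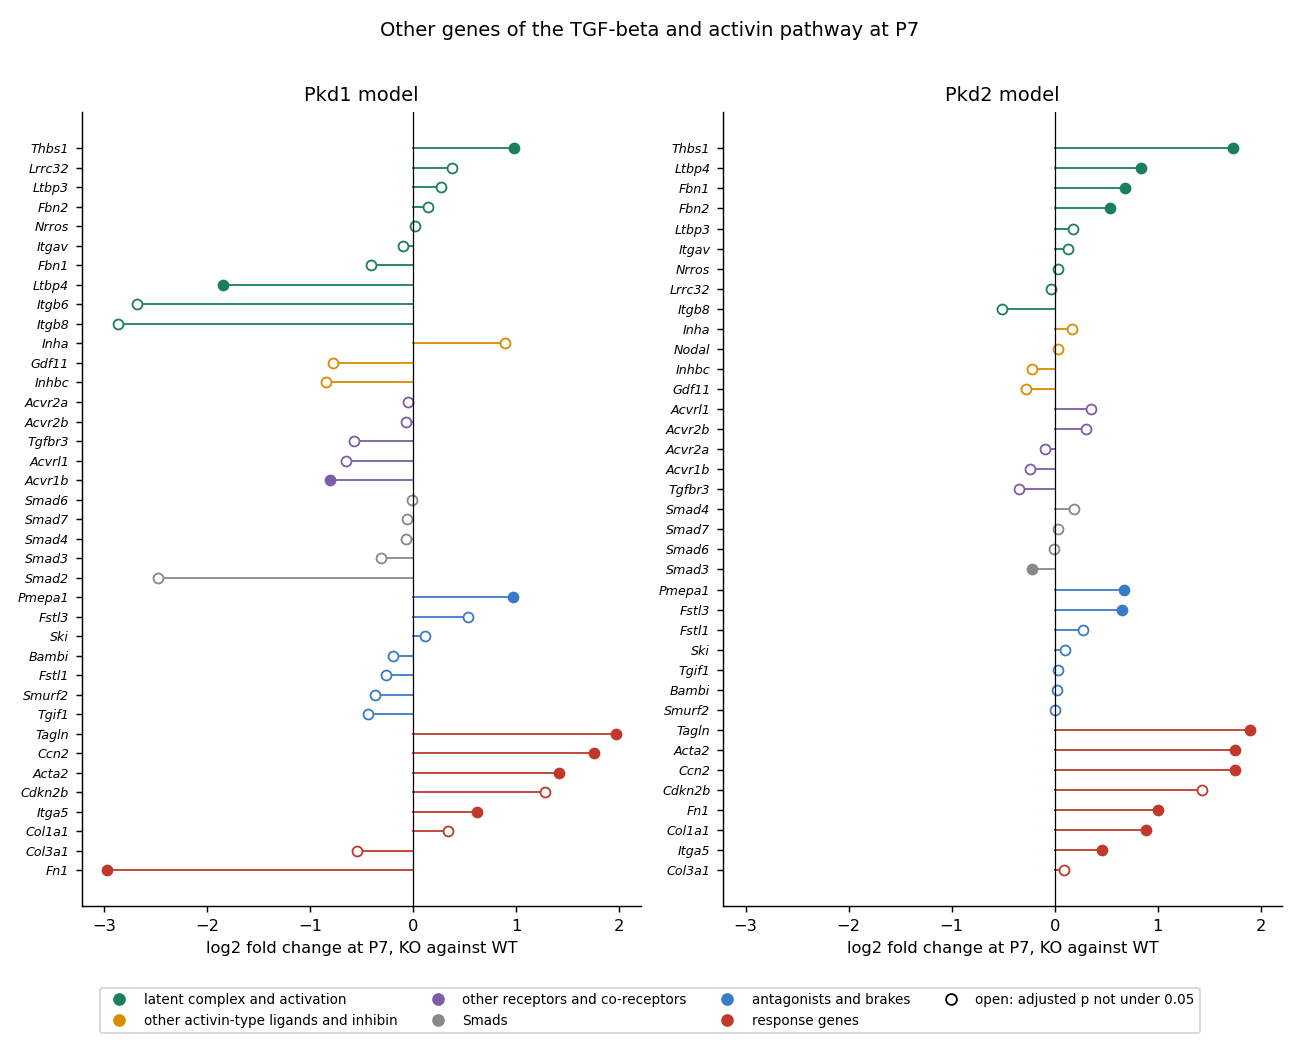
Log2 fold change at P7, KO against WT, of the other genes of the pathway that were tested, 38 in the Pkd1 and 37 in the Pkd2 model, coloured by role and ordered within a role. Filled points passed an adjusted p of 0.05; Tagln, Ccn2, Acta2 and Thbs1 lie to the right in both models, and Fn1 lies to the left in the Pkd1 model.

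Markers of other cell types moved at P7 together with these genes. All 6 proximal tubule markers were lower in both models, with summed levels of 1457 to 2532 CPM in Pkd1 KO against 3902 to 5021 in WT kidneys and of 2894 to 3156 against 4028 to 5288 in the Pkd2 model. The 7 collecting duct markers summed to 582 to 783 CPM in Pkd1 KO and 1278 to 1533 in WT kidneys, and to 764 to 893 against 1317 to 1631 in the Pkd2 model. Of the 6 tested among them, 3 were lower and 1 higher for Pkd1 and 3 were lower for Pkd2. Of the 6 stromal markers, 4 were tested: 1 was lower in Pkd1 KO kidneys, and 1 was higher and 2 lower in Pkd2 KO kidneys, with overlapping sums in the first (2515 to 3029 against 2350 to 3176 CPM) and separate sums in the second (3026 to 3859 against 2551 to 2787 CPM). Col1a2 made up nearly all of these sums, and the other stromal markers summed to 17.6 to 26.1 against 30.5 to 64.8 CPM for Pkd1 and to 32.7 to 41.8 against 72.4 to 105 CPM for Pkd2. In Pkd2 kidneys Col1a2 had a log2 fold change of 0.45 (adjusted p = 0.0302 in edgeR's test), while Dcn (-0.97, adjusted p = 0.0110) and Lum (-1.21, adjusted p = 0.00395) were lower. The 6 macrophage markers, 5 of them tested, summed to 193 to 202 against 150 to 184 CPM with none called for Pkd1, and to 224 to 283 against 159 to 173 CPM with 3 higher for Pkd2. The 5 endothelial markers, of which Pecam1 and Tek were listed at 0 and 2 were tested, summed to 270 to 363 against 365 to 472 CPM for Pkd1 and 340 to 401 against 454 to 467 CPM for Pkd2. The 5 nephron progenitor markers summed to 27.3 to 32.6 against 17.8 to 32.5 and to 24.1 to 26.6 against 27.6 to 32.3 CPM, with none called. Avpr2, Pdgfrb and Itgam were also listed at 0. Without Pkd1 WT replicate 3, 5 of 6 proximal tubule markers and 3 of 6 collecting duct markers were called lower and none higher, and the WT sums were 3902 to 4174 and 1465 to 1533 CPM. The part of these cell types in the members' changes was not tested.

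The transcripts whose 12 group means ran most like those of a member were found by the root-mean-square (RMS) difference of centred log2 levels among 8850 or 8851 transcripts with a mean of at least 100 counts. For Ltbp2, whose own means spread by 1.22, they were Cnn1, a smooth muscle calponin, Rgs16 and Akr1cl (0.53, 0.58 and 0.60). For Tgfb3, with a spread of 0.48, they were Serpinf1, Pim1 and Adamts20 (0.16, 0.20 and 0.21), and for Tgfb2, with 0.40, Pgm5, Kdelr3 and Cldn4 (0.16, 0.17 and 0.17). Nearest to Tgfb1 were Slc15a3, Rnasek and Mustn1, nearest to Tgfbr1 were Cnksr3, Eif2ak3 and Cxadr, and nearest to Tgfbi were Asrgl1, Fbxo17 and Gng10, at 0.08 to 0.13. The own means of Tgfb1, Tgfbr1 and Tgfbi spread by only 0.34, 0.16 and 0.25. Inhba was nearest to Edn1, Kcnf1 and F3 and Inhbb to St6galnac2, Foxs1 and Ahnak (0.29 to 0.39). Ltbp1 was nearest to Megf9, Tenm4 and Grb10 (0.30, 0.36 and 0.42). The spreads of Inhba, Inhbb and Ltbp1 were 0.87, 0.65 and 1.17.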

How the data were processed

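RNA-seq of kidney tissue was analysed for 36 libraries in 12 groups of 3. TopHat2 2.1.0 alignment to mm10, with CASAVA 1.8.2 also named in the submitters' processing notes, preceded counting, and the authors deposited raw read counts per RefSeq transcript, made with HTSeq at default options and RefSeq annotation. Default HTSeq leaves out reads that fit several features equally, and of the 4726 genes with several rows 49.0% had a mean under 1 count in their best row, against 25.9% of the 15732 genes with 1 row. Splits between isoforms or overlapping genes are therefore uncertain. Identifiers were paired with symbols and coordinates through RefSeq GRCm38.p6 (28978 of 29996 rows).

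A transcript needed 10 counts or more in 3 or more of a model's 18 libraries to be tested by the quasi-likelihood method of edgeR 4.0.16 (R 4.3.3) with TMM factors. Log2 levels for profiles used CPM plus 0.5. The length index used 10214 transcripts with a mean of at least 30 counts, 6507 bases or longer against 1251 bases or shorter. Alternatives were DESeq2 1.42.0, the exact test, RLE factors, no filter, a 2-fold minimum, the replicate number as a block, all 18 libraries in one fit with or without Y-linked counts as a covariate, summed rows, and leaving out each library, with 3 more chosen after seeing the data: a correction for length and GC content, the pathway and marker genes without Pkd1 P7 WT replicate 3, and the stromal sum without Col1a2. The Y-linked covariate was the presence or absence of Y-linked counts in a library, and not their number. Tables were made with pandas 2.3.3 on Python 3.11.15, and figures with matplotlib 3.10.9.

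All 10 members and, of the pathway list, up to 4 rises and 4 falls per model at P7 were named, with the 3 nearest transcripts of each called member. 1 gene of the pathway list is not reported here. Members and lists were chosen with earlier results of these data known. On simulated counts for Pkd1 at P7, the main test recovered 49% of 2-fold and 85% of 4-fold changes with 3 false calls among 12527 transcripts. The chi-square per transcript between replicates was 4.88 to 61.4 over 36 pairs, so that no replicate pair agreed within counting noise and the spread between libraries set the precision. Replicates are separate libraries, and the spread may hold technical differences. Same-numbered KO and WT libraries deviated together only in the Pkd1 model at P1 (correlations 0.39, 0.26 and 0.58), where the block changed no member's call. The labels do not tie numbers to litters.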

Additional observations from a re-analysis of the deposited data

Results flagged for a closer look

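The KO effect of 5 members for Pkd1 and 1 for Pkd2 differed between P7 and P1 by edgeR's interaction test. In the Pkd1 model the differences of log2 fold changes were 1.04 for Tgfb2, 1.76 for Tgfb3, 3.07 for Ltbp2, 0.59 for Tgfbi and -3.65 for Ltbp1. In the Pkd2 model the difference was 0.87 for Tgfb2. With Y-linked counts as a covariate none of the 5 passed in the Pkd1 model, nor did any of the 12527 transcripts (0%), where only the P1 WT group mixes libraries with and without Y-linked counts, and Tgfb2 passed in the Pkd2 model (adjusted p = 0.0337).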

How the results depend on the processing

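RLE factors, summed rows and no low-count filter changed no count of members called. A 2-fold minimum left 4 members in the Pkd1 and 5 in the Pkd2 model at P7, 0 in the Pkd2 interaction of day and genotype, and 2 and 3 in WT kidneys over time. The share of all transcripts left by this minimum was not counted. DESeq2 called 1 member in the Pkd2 model at P1, 5 in the Pkd2 interaction and 2 between the models, and the exact test called 1 in the Pkd2 model at P1. The replicate block left 3 members (Tgfb2, Tgfb3 and Ltbp2) in the Pkd1 model at P7 and 0 in the Pkd2 interaction, and changed no other count of members called by more than 1.5-fold. The block called 712 transcripts for Pkd1 at P7 and 78 in the Pkd2 interaction, against 1721 and 164 without it. In the Pkd1 model at P7 same-numbered KO and WT libraries did not deviate together (correlations down to -0.21). Own numbers gave the highest correlation for 0 of 6 libraries there. Whether same-numbered mice share a litter cannot be told from these correlations or from the labels. With Y-linked counts as a covariate 1 member, Tgfb3 (1.33 on the log2 scale, edgeR adjusted p = 0.0317), was called in the Pkd1 model at P7, 0 in the Pkd1 interaction and 2 in Pkd1 WT kidneys over time. The length and GC correction called 2 members in the Pkd2 interaction and lost Tgfb1 at P7 in both models (0.30 and 0.23, adjusted p = 0.0593 and 0.0936). It called 205 transcripts in that interaction, against 164 without it. At P7 it called 2193 transcripts for Pkd1 and 1885 for Pkd2, against 1721 and 1753.

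Leaving out 1 library gave 1 to 7 members in the Pkd1 model at P7 (2, 3 and 5 without KO replicate 1, 2 and 3 and 1, 4 and 7 without WT replicate 1, 2 and 3), 6 to 7 in the Pkd2 model at P7, 1 to 2 in the Pkd2 interaction, 0 to 3 between the models and 2 to 4 in Pkd2 WT kidneys. Without Pkd1 WT replicate 3, 25.7% of all transcripts were called at P7 and 11.7% between the models, against 13.7% and 0% with it. For the fits without another library this share was not counted. Calls lost in those fits therefore cannot be set against the losses among all transcripts. Log2 fold changes that turned in sign were all of members not called in that comparison. In the Pkd1 model at P1 the range without 1 library was -0.16 to 0.062 for Tgfb1, -0.085 to 0.034 for Tgfbr1, -0.34 to 0.18 for Inhba, -0.23 to 0.22 for Inhbb, -0.36 to 0.18 for Ltbp1, -0.49 to 0.45 for Ltbp2 and -0.063 to 0.057 for Tgfbi. At P3 it was -0.93 to 0.40 for Inhba and -0.25 to 0.31 for Inhbb, and at P7 -0.18 to 0.054 for Tgfbr1 and -0.30 to 0.31 for Inhba. In the Pkd2 model it was -0.35 to 0.81 for Inhba and -0.068 to 0.26 for Tgfbi at P1, and -0.57 to 0.10 for Tgfb3, -1.29 to 0.62 for Inhba, -0.0044 to 0.73 for Ltbp1 and -0.039 to 0.14 for Tgfbi at P3. The Y-linked covariate turned Tgfb3, Ltbp2 and Tgfbi in the Pkd1 model at P1 (0.10, 0.81 and -0.063) and Tgfbr1 at P7 (0.024). The length and GC correction turned Tgfbi at P1 (-0.00071), Tgfb1 and Tgfbr1 at P3 (-0.093 and 0.027) and Tgfbr1 and Inhba at P7 (0.11 and -0.12), and the block turned Tgfbi at P1 (-0.00044), all in the Pkd1 model. The cause was not tested. Inhba, with at most 22 reads in every library but the Pkd2 KO kidneys at P7, and Ltbp1 in the Pkd1 KO kidneys at P7 were limited by depth.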
